A study of Mus musculus with 3 samples.

Results

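The interferon system was read in sorted stromal cells of the mouse mesenteric lymph node through 86 genes of the 28084 gene names on the arrays. Membership was set by the name of the gene alone: names beginning with Ifi, Ifn, Isg or Oas, numbered IRF, STAT and Gbp genes, the Irgm genes, Iigp1, Igtp, Mx1, Mx2, Rsad2 and Usp18. Of these names, 3 (Irf2bp1, Irf2bp2 and Isg20l2) met the rule by spelling and do not belong to the system by function. The groups were lymphatic endothelial cells (LEC, gp38+ CD31+), blood endothelial cells (BEC, gp38- CD31+) and fibroblastic reticular cells (FRC, gp38+ CD31-), the fibroblasts that build the node's inner scaffold. All came from wild-type C57BL/6NCrl mice, with no treatment and no age named in the labels. All 3 RNAs were hybridised on 1 slide. Nodes were digested with collagenase, cells bearing CD45 were removed magnetically, and CD45- CD24- cells were then sorted on gp38 and CD31. The labels give a mean subset purity of 88%, and the numbers of mice and of sorts behind each RNA are not named. Each population had 1 array, so no difference has a replicate check and no test was possible.

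Interferons are secreted proteins that bind paired receptor chains on the cell surface and, through Janus kinases, activate STAT transcription factors. Type I interferons act through a complex of STAT factors with IRF9, which binds the interferon-stimulated response element, whereas interferon-gamma acts through STAT pairs that bind palindromic sites. The genes switched on by these factors encode proteins that block viral entry, cut or trap viral RNA and attack vacuoles that hold pathogens, and part of this programme is active in many tissues without infection.

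Levels are given as log2 of the processed intensity minus the log2 75th percentile of the array it was read on, so that 0 stands for that percentile. A level is compared only for the same probe between arrays, not between genes. The 75th percentile was an intensity of 268 on the LEC array, 361 on the BEC array and 387 on the FRC array. The shares of probes well above background were 59.7%, 60.1% and 60.5% in the same order. The lowest signal well above background lay at -4.20 on the LEC array, -4.38 on the BEC array and -4.34 on the FRC array. Of the gate genes, Pecam1, which encodes CD31, was at 2.33 in LEC, 4.02 in BEC and -4.06 in FRC, and the gp38 gene Pdpn was at -1.19, -3.81 and -0.83 in that order. Ptprc, which encodes CD45, was at -1.57 in LEC, 0.23 in BEC and -2.36 in FRC, and Cd24a was at 3.40, 3.89 and 1.61. The gated-out markers were thus measured on every array. Lymphatic, blood endothelial and fibroblastic marker lists were each brightest in summed intensity on the array of their own population.

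Of the 86 members, 70 were well above background on all 3 arrays, which is 81.4% against 55.7% of all genes. Another 8 members were above background on no array: Ifna4, Ifnb1, Ifne, Ifnk, Oas1d, Oas1g, Oas1h and Ifi202b. The remaining 8 were measured on some arrays only: Ifng, Stat4, Irf4, Mx1, Oas2, Gbp1, Ifitm5 and Ifi205. Of these, Ifng was above background on the BEC array alone, Irf4 on the FRC array alone, and Mx1 and Gbp1 on the LEC array alone. A member enters a comparison where one of its probes was above background on either array.

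**Figure D1:**
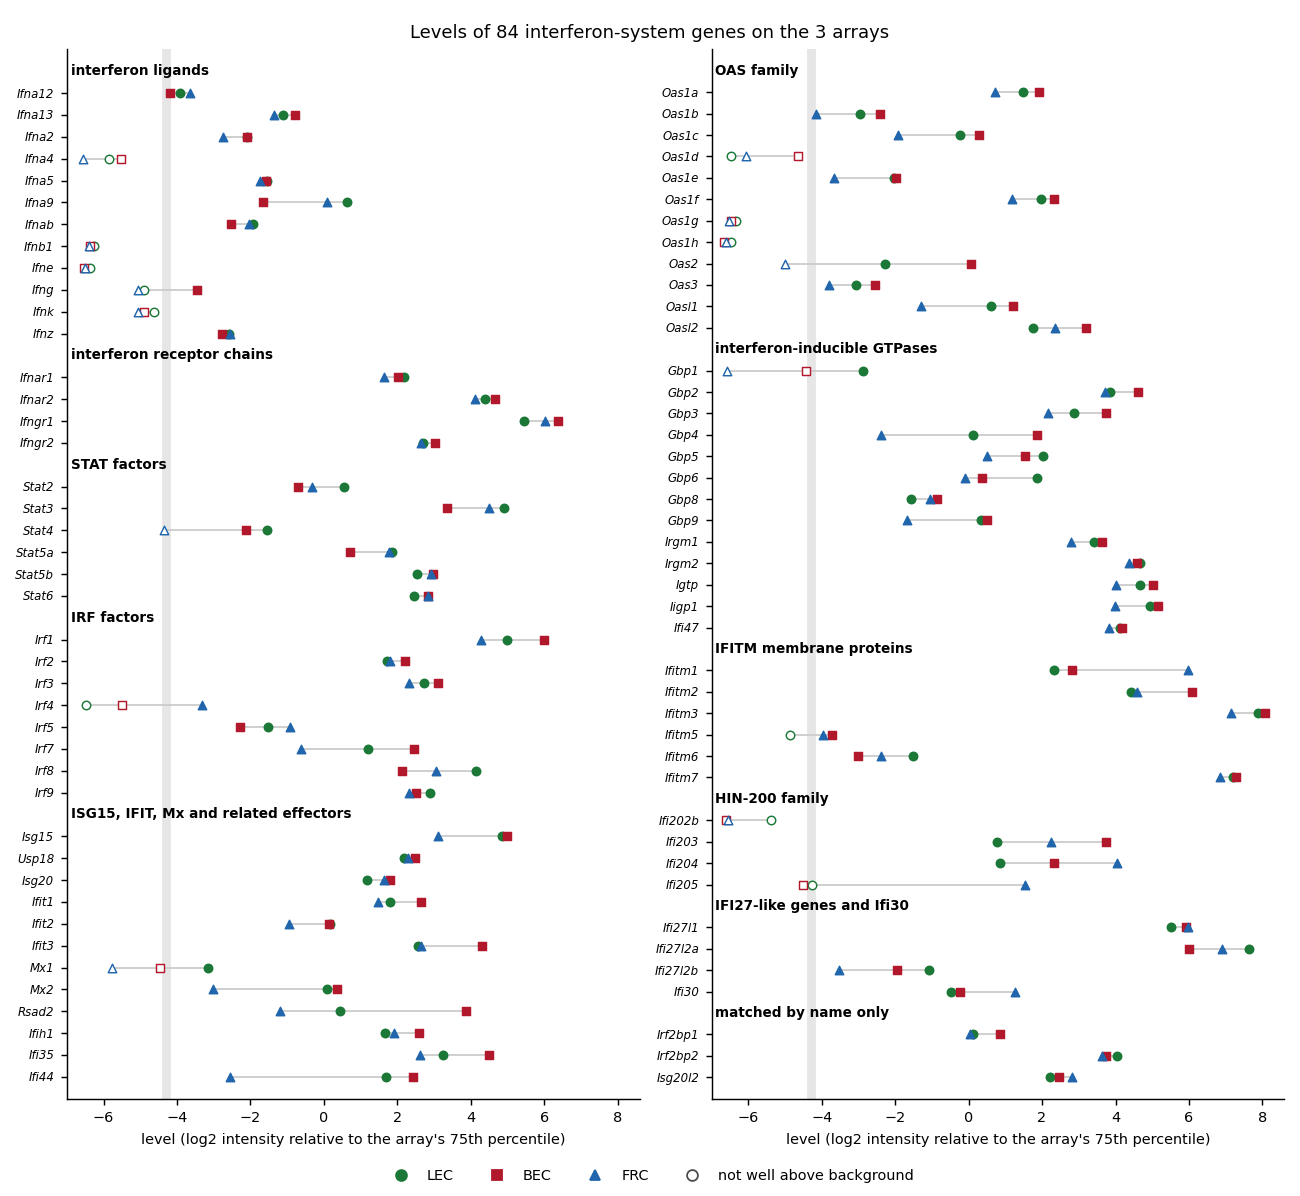
Level of 84 members on the LEC (circle), BEC (square) and FRC (triangle) arrays, grouped by role, on a log2 axis relative to each array's 75th percentile. Open symbols are not well above background, the grey band spans the lowest signals well above background, and FRC is the lowest of the 3 arrays for 42 of the 70 members measured on all of them.

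Interferon-system genes were more often higher in the endothelial cells than in FRC, and most often highest in BEC. In LEC against FRC, 77 members were compared, and 8 (10.4%) were higher in LEC by at least 4-fold, beside 4.89% of all genes compared. With normexp background correction, which fits and removes a background from each array's raw signal, 2 of the 77 (2.60%) passed, beside 3.00% of all genes, so the share in LEC was then not above that of all genes. Another 3 members (3.90%) were at least 4-fold lower in LEC, beside 5.93% of all genes. The median difference of members was 0.54 for LEC minus FRC, against 0.02 over all genes, and 54 members (70.1%) were above 0, against 51.3% of all genes.

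In BEC against FRC, 76 members were compared and 11 (14.5%) were at least 4-fold higher in BEC, beside 6.58% of all genes. At least 4-fold lower in BEC were 2 members (2.63%), beside 7.57% of all genes. The median of BEC minus FRC was 0.68 for the members and 0.09 for all genes. Above 0 were 58 members (76.3%), against 54.8% of all genes. At least 2-fold higher in BEC were 30 members (39.5%), against 16.8% of all genes. Between the endothelial populations 76 members were compared, of which 2 (2.63%) exceeded their BEC value at least 4-fold in LEC, beside 3.39% of all genes. At least 4-fold lower in LEC than in BEC were 3 members (3.95%), beside 3.38% of all genes, and both shares are near the background. The median of LEC minus BEC was -0.30 for the members and -0.07 for all genes, with 52 members (68.4%) below 0, against 54.2% of all genes. The comparisons with FRC share the FRC array, so they are not independent of each other. Dividing each array's values by its slope over the spike-in controls, a choice made after seeing the data, moved the LEC minus FRC median to 0.062, with 41 of the 77 members above 0, while the BEC minus FRC median was then 0.52. The medians of all genes under that slope are not given here, so these values have no background beside them.

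Ordering the arrays for each of the 70 members measured on all of them gave BEC highest for 44 (62.9%), against 39.3% of all genes measured on all arrays. FRC was the lowest array for 42 members (60%), against 41.8% of all genes, and the highest for 8 (11.4%), against 33.1%. The single order with BEC highest, LEC between and FRC lowest held for 32 members (45.7%), against 25.2% of all genes.

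**Figure D2:**
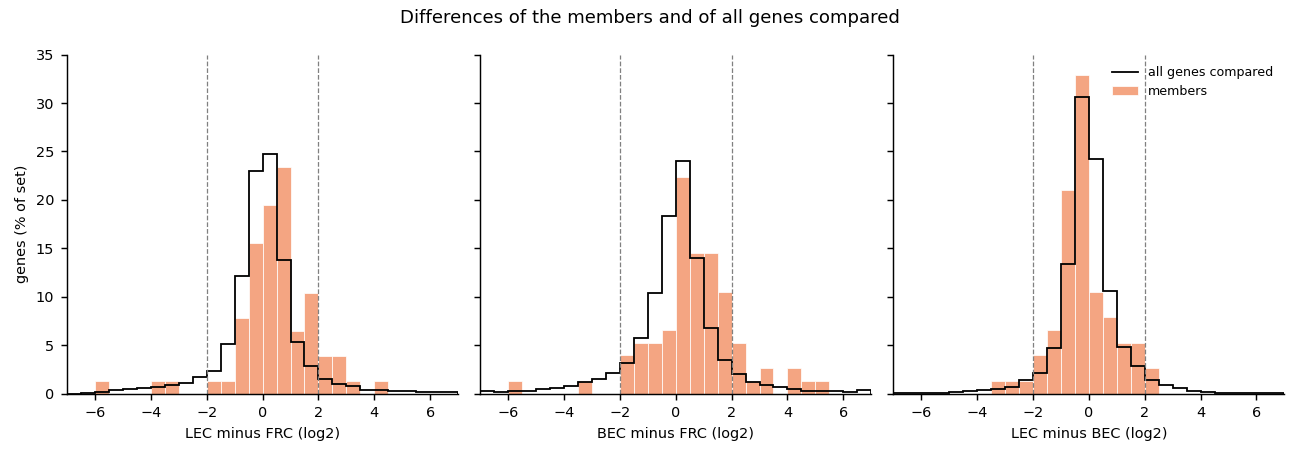
Share of members (bars) and of all genes compared (line) in bins of log2 difference, with 1 panel for each pair of populations, values beyond the axis placed in the outermost bins, and dashed lines at 4-fold. From left to right, the members' medians are 0.54, 0.68 and -0.30, against 0.02, 0.09 and -0.07 over all genes.

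In summed intensity, the pan-leukocyte, B cell, T cell, and macrophage and dendritic cell marker lists were each brightest in BEC and dimmest in FRC. Each measured B cell marker followed that order. Not every gene of the other lists did, such as Laptm5, at -1.47 in LEC, -2.56 in BEC and -3.32 in FRC. The 5 pan-leukocyte markers, all measured on every array, summed to 8.77 on the LEC array, 23.1 on the BEC array and 5.27 on the FRC array, in units of each array's 75th percentile. The B cell markers summed to 3.58 in LEC, 9.16 in BEC and 1.47 in FRC, with Pax5 not above background on any array. The T cell markers summed to 3.02, 4.32 and 1.55 in the same order, but their median difference was -0.02 for LEC minus FRC, and Lck, at 0.79 in LEC, 0.44 in BEC and -2.28 in FRC, was the T cell marker past 4-fold there. The macrophage and dendritic cell markers summed to 19.0 in LEC, 19.9 in BEC and 15.2 in FRC, with Itgam not above background on any array. That sum includes Cd74, at 2.43, 3.79 and 1.48 in the same order, and the list's median was 0.08 in BEC minus FRC and 0.39 in LEC minus BEC, with Aif1 at 1.46 in LEC, -0.53 in BEC and 2.59 in FRC. Siglech, which defines plasmacytoid dendritic cells, was not above background on any array, although that list, which includes the interferon-induced gene Bst2, summed to 198 in LEC, 174 in BEC and 54.6 in FRC. Their part in the differences of the interferon genes was not tested. In such bulk samples, fewer cells of a type and less RNA per cell cannot be told apart.

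Promoter sequence adds a property that the arrays did not measure. RefSeq promoter windows of the build GRCm38.p6, running from 250 bases before to 50 bases after the start, were found for 69 of the 86 members. They were searched on both strands for the response element core (GAAA, any 2 bases, GAAA) and for a STAT palindrome (TTC, any 3 bases, GAA). Neighbouring cores can share one GAAA. The core occurred in 30 members (43.5% of those with a window), against 1079 of 27025 genes in the whole table (3.99%). The palindrome occurred in 24 members (34.8%), against 9.55% of all genes. Members without a window included Gbp4, Gbp8, Gbp9, Ifi204, Ifi27l1, Ifi27l2a, Ifi27l2b, Iigp1, Mx1, Mx2, Oas1b, Oas1d, Oas1e, Oas2 and Usp18. Among members past 4-fold higher in LEC or BEC over FRC, 3 of the 6 with a window held the core. Of the members past 4-fold lower, 1 of the 2 with a window did. Of those past 4-fold in neither direction against FRC, 26 of the 61 with a window did.

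**Figure D3:**
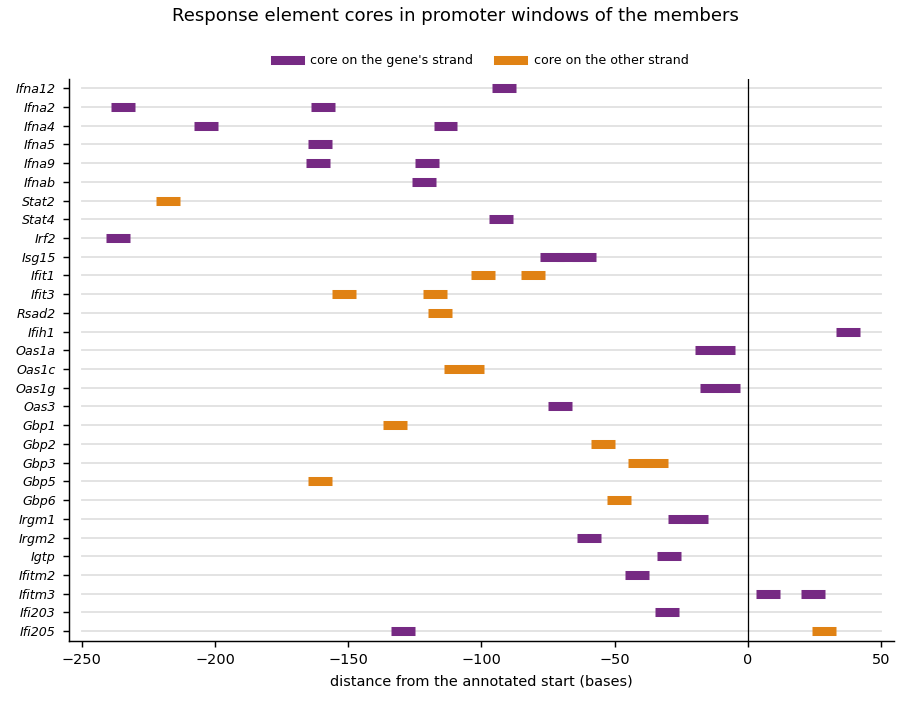
Positions of the response element core in the promoter windows of the 30 members that hold it, in bases from the annotated start at 0, coloured by strand. Neighbouring cores that share bases appear as one longer bar, as for Isg15, Oas1a, Oas1c, Oas1g, Gbp3 and Irgm1.

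Apart from Ifna9, the interferon ligand genes lay below the 75th percentile on every array. Of the 12 ligand genes, 7 were measured on every array and 4 on none, among them Ifnb1, the main interferon of fibroblasts. Ifna9, a type I interferon, was at 0.63 in LEC, -1.67 in BEC and 0.09 in FRC. It was 4.93-fold higher in LEC than in BEC (probe at chr4:88237854-88237913 on mm9), and with normexp background correction the call was lost, at 1.74 log2. The other ligands measured on both arrays differed by less than 2-fold in each comparison. Ifng, the type II interferon of lymphocytes, was at -3.47 in BEC and not above background in LEC or FRC.

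The receptor chains were measured on every array and, through the probe used for each, differed by less than 2-fold in each comparison. Ifnar1, a chain of the type I receptor, was at 2.19 in LEC, 2.02 in BEC and 1.65 in FRC, and its partner Ifnar2 was at 4.40, 4.65 and 4.12. Ifngr1, the ligand-binding chain of the interferon-gamma receptor, was at 5.44 in LEC, 6.39 in BEC and 6.02 in FRC. Its partner Ifngr2 was at 2.71 in LEC, 3.03 in BEC and 2.65 in FRC. Other probes differed more: that of Ifnar2 stood 2.38-fold above FRC in LEC and 2.41-fold in BEC, and that of Ifngr2 was 2.01-fold higher in LEC than in BEC, where the probe used was lower in LEC.

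STAT factors carry the receptor signal to the nucleus. Stat2, a factor of the type I pathway, was at 0.54 in LEC, -0.69 in BEC and -0.33 in FRC. Stat3, which carries interleukin-6 signals, was at 4.92 in LEC, 3.35 in BEC and 4.49 in FRC, and was thus lowest in BEC, 2.20-fold below FRC. Stat6, the interleukin-4 factor, was at 2.47 in LEC, 2.84 in BEC and 2.82 in FRC and differed by at most 1.30-fold. Stat5a differed by at most 2.17-fold and Stat5b by at most 1.33-fold, each through the probe used.

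Stat4, which carries interleukin-12 signals in lymphocytes, was the STAT gene past 4-fold. It was at -1.55 in LEC and -2.13 in BEC, and at -4.35, not well above background, in FRC. For a gene not well above background on one of the arrays compared, its value there was replaced by the lowest signal well above background on that array, unless its own value was higher, and the fold is then a lower bound. Stat4 exceeded FRC at least 6.91-fold in LEC and at least 4.60-fold in BEC (probe at chr1:52163802-52163861 on mm9). Both calls were lost with normexp background correction, at 1.41 for LEC and 0.96 for BEC. One of its windows, at chr1:52007990-52008289 on the plus strand of GRCm38.p6, holds a core in capitals and is shown because Stat4 was past 4-fold higher in both endothelial populations.
Stat4 promoter: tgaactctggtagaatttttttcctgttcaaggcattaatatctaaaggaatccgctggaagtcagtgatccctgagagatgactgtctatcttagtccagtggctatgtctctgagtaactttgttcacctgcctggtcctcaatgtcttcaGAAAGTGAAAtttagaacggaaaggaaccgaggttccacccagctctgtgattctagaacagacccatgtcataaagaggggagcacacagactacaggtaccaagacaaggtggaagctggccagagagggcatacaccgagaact

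IRF factors switch on interferons and their target genes. Irf7, the main factor amplifying type I interferon, was at 1.21 in LEC, 2.45 in BEC and -0.63 in FRC. BEC was the highest array and FRC the lowest, by 8.49-fold in BEC against FRC and by 3.58-fold in LEC against FRC. Its call in BEC was kept under each alternative setting.

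Irf8, which directs myeloid and dendritic cell development, was at 4.15 in LEC, 2.14 in BEC and 3.05 in FRC. It was 4.02-fold higher in LEC than in BEC, at the edge of the threshold, and its second probe gave 2.22 log2. That call was lost with the median of detected probes as the scale, with normexp correction and with the spike-in slope.

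Irf1, an early target of interferon-gamma, was at 4.99 in LEC, 6.00 in BEC and 4.27 in FRC, with BEC 3.32-fold above FRC. Irf3, the sensor-activated factor, was at 2.71 in LEC, 3.11 in BEC and 2.33 in FRC. Irf9, the IRF of the type I complex, was at 2.90 in LEC, 2.51 in BEC and 2.32 in FRC. All 3 of these genes were lowest in FRC, but none of them was with the spike-in slope. With that slope, Irf1 and Irf3 were lower in LEC than in FRC, and Irf9 was lower in BEC than in FRC. Irf4, a lymphocyte factor, was not above background in LEC or BEC and was at -3.33 in FRC, at least 1.83-fold lower in LEC and at least 2.07-fold lower in BEC. Irf2 and Irf5 differed by at most 1.41-fold and 2.57-fold.

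Antiviral effectors held large positive differences in BEC. Of the 11 members of the ISG15, IFIT, Mx and related group compared in BEC against FRC, 11 were above 0, with a median of 1.65. Of all genes compared there, 54.8% were above 0. In this group, 10 were above 0 with the mean over a gene's probes and 9 with the spike-in slope. Rsad2, which encodes viperin, an enzyme that makes a chain-terminating nucleotide, was at 0.44 in LEC, 3.86 in BEC and -1.19 in FRC. BEC stood far above the others, 33.1-fold above FRC, and LEC was 10.7-fold below BEC (probe at chr12:27127859-27127918 on mm9). The probes of Rsad2 agreed in direction, and the other probe measured in BEC minus FRC gave 3.21 log2.

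Ifi44, an interferon-induced cytoplasmic protein, was at 1.70 in LEC, 2.42 in BEC and -2.54 in FRC. Both endothelial populations stood above FRC, by 19.0-fold in LEC and 31.2-fold in BEC (probe at chr3:151394035-151394094 on mm9). Mx2, a gene of the dynamin-like Mx GTPases, was at 0.08 in LEC, 0.36 in BEC and -3.02 in FRC. It followed the same order, with 8.54-fold in LEC and 10.3-fold in BEC over FRC (probe at chr16:97782327-97782386 on mm9). The Ifi44 and Mx2 calls in both comparisons, and those of Rsad2 in BEC, were kept under each alternative setting, with the lowest values for Ifi44 and Mx2 under normexp correction, at 3.29 and 2.05 log2 in LEC and 3.99 and 2.25 in BEC.

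Isg15, a ubiquitin-like protein that is attached to others, was at 4.86 in LEC, 4.98 in BEC and 3.12 in FRC. It exceeded FRC 3.35-fold in LEC and 3.64-fold in BEC, just under the threshold. Usp18, which removes ISG15 again, was at 2.17, 2.50 and 2.29 in LEC, BEC and FRC and differed little. Ifit1, which binds foreign RNA ends, was at 1.80 in LEC, 2.65 in BEC and 1.48 in FRC. Ifit3, its partner, was at 2.56, 4.30 and 2.66, and so stood higher in BEC alone, by 3.13-fold over FRC. Mx1, which is defective in most laboratory strains, was at -3.15 in LEC and not above background in BEC or FRC. Ifi35 was at 3.24 in LEC, 4.49 in BEC and 2.61 in FRC. Ifih1, the RNA sensor MDA5, was 1.62-fold above FRC in BEC through the probe used, but its other probe gave -2.03 log2. In LEC minus BEC its probes gave -0.92 and 1.59.

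The promoter stretches show how the core is arranged. Isg15 (chr4:156200865-156200906, minus strand, GRCm38.p6) holds 3 overlapping cores just upstream of the start, and Ifit1 (chr19:34640775-34640823, plus strand) holds 2 separate ones, with the cores in capitals.
Isg15 promoter stretch: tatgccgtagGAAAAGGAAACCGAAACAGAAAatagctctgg
Ifit1 promoter stretch: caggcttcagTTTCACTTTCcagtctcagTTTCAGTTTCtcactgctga
The Rsad2 window (chr12:26456403-26456702, minus strand) holds 1 core, in capitals, at -120 to -111 from the start, and is shown because Rsad2 had the largest positive difference measured on both arrays. The Ifi44 window (chr3:151749861-151750160, minus strand) holds no core by these letters, and is shown beside it because Ifi44 had a similar difference.
Rsad2 promoter: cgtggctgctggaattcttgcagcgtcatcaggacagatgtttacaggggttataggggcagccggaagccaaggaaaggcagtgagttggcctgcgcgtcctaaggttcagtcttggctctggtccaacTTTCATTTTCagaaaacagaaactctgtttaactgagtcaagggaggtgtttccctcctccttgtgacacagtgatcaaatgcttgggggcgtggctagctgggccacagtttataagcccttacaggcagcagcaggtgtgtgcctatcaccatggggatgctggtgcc
Ifi44 promoter: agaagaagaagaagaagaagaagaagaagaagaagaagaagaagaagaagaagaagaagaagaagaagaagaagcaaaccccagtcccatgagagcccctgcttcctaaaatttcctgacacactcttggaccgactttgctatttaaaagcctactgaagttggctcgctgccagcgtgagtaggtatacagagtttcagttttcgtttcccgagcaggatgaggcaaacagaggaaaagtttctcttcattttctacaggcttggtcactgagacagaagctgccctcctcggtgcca

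The OAS enzymes make a nucleotide messenger that leads to the cutting of RNA. Of the 9 OAS members compared, 9 were above 0 in BEC minus FRC and 9 were below 0 in LEC minus BEC. In LEC minus FRC, 8 were above 0. The shares of all genes in these directions were 54.8%, 54.2% and 51.3%. The OAS medians were 1.68, -0.52 and 1.21 in that order. The LEC minus BEC values ran from -2.34 to -0.05, and with the spike-in slope 8 of the 9 were below 0 there. Oas2 was at -2.27 in LEC and 0.07 in BEC, and at -5.01, not well above background, in FRC. It exceeded FRC at least 4.20-fold in LEC and at least 21.3-fold in BEC, and was 5.07-fold lower in LEC than in BEC. The LEC calls, against FRC and against BEC, were lost with normexp correction, at 0.97 and -1.50, and the bound in BEC was then 2.47 log2.

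Oasl1, an OAS-like protein that in mouse restrains translation of Irf7, was at 0.60 in LEC, 1.22 in BEC and -1.29 in FRC, with BEC 5.67-fold above FRC. Oas1c was at -0.22 in LEC, 0.28 in BEC and -1.93 in FRC, with BEC 4.61-fold above FRC, a call lost with normexp correction at 1.60. Oasl2 was at 1.74 in LEC, 3.20 in BEC and 2.34 in FRC, and was the exception to the positive LEC minus FRC differences. Both Oas1a (chr5:120907520-120907555, minus strand, GRCm38.p6) and Oas1c (chr5:120812465-120812764, minus strand) carry 2 overlapping cores, in capitals, on opposite strands relative to the gene.
Oas1a promoter stretch: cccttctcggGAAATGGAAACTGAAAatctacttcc
Oas1c promoter: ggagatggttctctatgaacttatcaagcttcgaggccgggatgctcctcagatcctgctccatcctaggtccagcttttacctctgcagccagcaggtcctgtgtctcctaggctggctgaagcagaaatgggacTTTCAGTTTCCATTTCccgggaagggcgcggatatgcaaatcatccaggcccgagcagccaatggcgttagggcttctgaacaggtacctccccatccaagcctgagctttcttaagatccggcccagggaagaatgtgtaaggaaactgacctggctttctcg

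**Figure D4:**
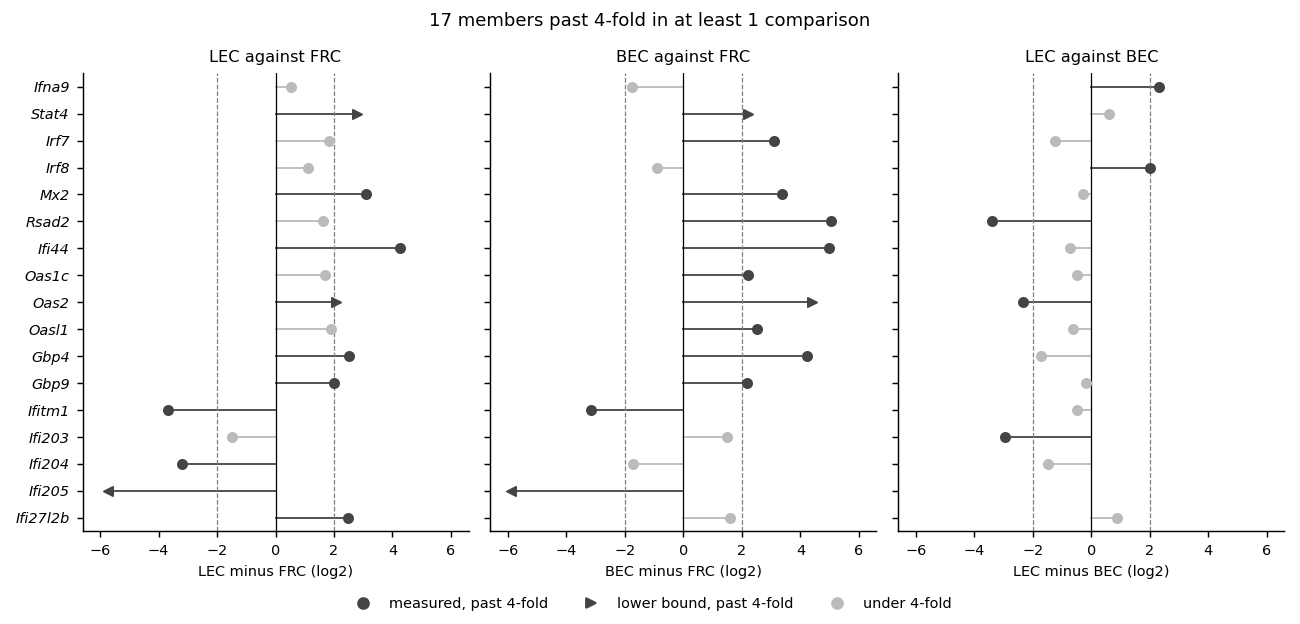
Log2 differences of 17 members past 4-fold in at least 1 comparison, with 1 panel for each pair of populations, dashed lines at 4-fold, arrowheads for lower bounds and pale points for differences under 4-fold. Rsad2 and Ifi44 reach 5.05 and 4.96 in BEC minus FRC, and Ifi205 extends at least to -5.90.

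Interferon-inducible GTPases coat and break pathogen vacuoles. Of the 13 members compared in LEC against FRC, 12 were above 0, but 7 with the spike-in slope. In BEC against FRC 12 of 12 were, but 10 with that slope. Of all genes compared, 51.3% were above 0 in LEC minus FRC and 54.8% in BEC minus FRC. Gbp8 counts in BEC minus FRC through a probe at 0.17, and its other probe gave -1.50. Gbp4, a guanylate-binding protein, was at 0.12 in LEC, 1.85 in BEC and -2.39 in FRC. BEC was highest, 18.9-fold above FRC, and LEC was 5.70-fold above FRC, the LEC call being lost with normexp correction at 1.78, where BEC gave 3.32. Gbp9 was at 0.34 in LEC, 0.51 in BEC and -1.67 in FRC, with LEC 4.03-fold and BEC 4.55-fold above FRC. Its LEC call was lost with 3 of the alternatives, among them the mean over its probes, and its BEC call with normexp correction. Gbp6, which RefSeq names Gbp7, was just below the threshold at 3.90-fold higher in LEC than in FRC.

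The remaining GTPases differed less. Iigp1, an immunity-related GTPase, was at 4.94 in LEC, 5.14 in BEC and 3.97 in FRC, with FRC the lowest. The stretches of Gbp3 (chr3:142559989-142560024, plus strand, GRCm38.p6) and Irgm1 (chr11:48871425-48871460, minus strand) show the same pair of overlapping cores, in capitals, close to the start of genes under 4-fold in all comparisons.
Gbp3 promoter stretch: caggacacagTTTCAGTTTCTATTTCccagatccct
Irgm1 promoter stretch: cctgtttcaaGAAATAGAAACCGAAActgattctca

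The IFITM membrane proteins, which block viral entry, split by member. Ifitm1 was at 2.31 in LEC, 2.82 in BEC and 5.98 in FRC. FRC stood far above both endothelial arrays: Ifitm1 was 12.7-fold lower in LEC and 8.96-fold lower in BEC than in FRC, calls kept under each alternative setting, with -4.98 and -4.22 log2 under the spike-in slope. Ifitm2 was at 4.42 in LEC, 6.08 in BEC and 4.59 in FRC, highest in BEC. Ifitm3 was at 7.88 in LEC, 8.06 in BEC and 7.16 in FRC, and Ifitm7 was at 7.19, 7.29 and 6.84. Ifitm3 was 1.65-fold above FRC in LEC and 1.87-fold in BEC, and with the spike-in slope it was lower in LEC than in FRC. The probe behind the Ifitm1 difference lies at chr7:148155455-148155514 on mm9. It is shown because FRC was the highest array for Ifitm1 and, in the main setting, the lowest for Ifitm3. Among the 3655 pairs of the probes used for each member, none shared 20 or more bases in a row. The closest by that measure, those of Ifna13 and Ifna4, still matched at 45 of 60 bases. Other probes of the members and genes outside the members were not compared.
Ifitm1 probe: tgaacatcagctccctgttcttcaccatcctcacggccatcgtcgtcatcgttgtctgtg

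The HIN-200 genes encode DNA-binding proteins induced by interferon. Ifi205 was at -4.28 in LEC and -4.51 in BEC, not well above background on either array, and at 1.52 in FRC. It was at least 52.6-fold lower in LEC and at least 59.6-fold lower in BEC than in FRC. With normexp correction these differences were -3.43 and -3.58 log2, and its second probe was not above background on any array. Ifi204 was at 0.86 in LEC, 2.33 in BEC and 4.05 in FRC, 9.12-fold lower in LEC and 3.29-fold lower in BEC than in FRC, and its other 2 probes gave -3.42 and -3.30 for LEC minus FRC. Ifi203 was at 0.77 in LEC, 3.74 in BEC and 2.24 in FRC. It was 7.84-fold lower in LEC than in BEC, a call lost with the mean over its probes at -1.79. Through the probes used, the 3 neighbouring genes thus ran in different orders, with Ifi203 highest in BEC and the others highest in FRC. Another Ifi203 probe gave 0.14 for BEC minus FRC, and its remaining probe was above background on the FRC array alone.

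The probe behind the Ifi205 difference lies at chr1:175956747-175956806 on mm9, minus strand. Its promoter window (chr1:174031706-174032005, minus strand, GRCm38.p6) holds 2 cores, in capitals, and the Ifi203 stretch (chr1:173942508-173942537, minus strand) holds 1. They are shown because the core stood in a gene high in FRC and in one high in BEC through the probe used.
Ifi205 probe: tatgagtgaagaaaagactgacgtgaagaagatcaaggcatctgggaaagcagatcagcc
Ifi205 promoter: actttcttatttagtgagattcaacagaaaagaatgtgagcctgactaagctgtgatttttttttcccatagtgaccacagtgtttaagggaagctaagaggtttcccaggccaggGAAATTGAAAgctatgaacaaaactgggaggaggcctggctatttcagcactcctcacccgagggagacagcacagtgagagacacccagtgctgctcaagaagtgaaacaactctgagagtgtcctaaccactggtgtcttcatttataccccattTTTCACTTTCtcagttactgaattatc
Ifi203 promoter stretch: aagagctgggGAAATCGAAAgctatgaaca

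Among the IFI27-like genes, Ifi27l2b was at -1.08 in LEC, -1.96 in BEC and -3.54 in FRC, 5.52-fold higher in LEC than in FRC, a call lost with normexp correction at 1.46. Ifi27l2a was at 7.63 in LEC, 6.00 in BEC and 6.90 in FRC and was lowest in BEC. Ifi30, a lysosomal thiol reductase of antigen processing, was at -0.47 in LEC, -0.24 in BEC and 1.26 in FRC and was highest in FRC. The genes matched by name only differed by at most 1.77-fold, and Irf2bp2 was at 4.04 in LEC, 3.75 in BEC and 3.64 in FRC.

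Several probes were present for 29 of the members. In LEC minus FRC, 16 of 19 such members with another measured probe had all probes in the same direction, in BEC minus FRC 13 of 19, and in LEC minus BEC 13 of 20. The probes of Ifih1 lay more than 2 log2 apart in BEC minus FRC and in LEC minus BEC.

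**Figure D5:**
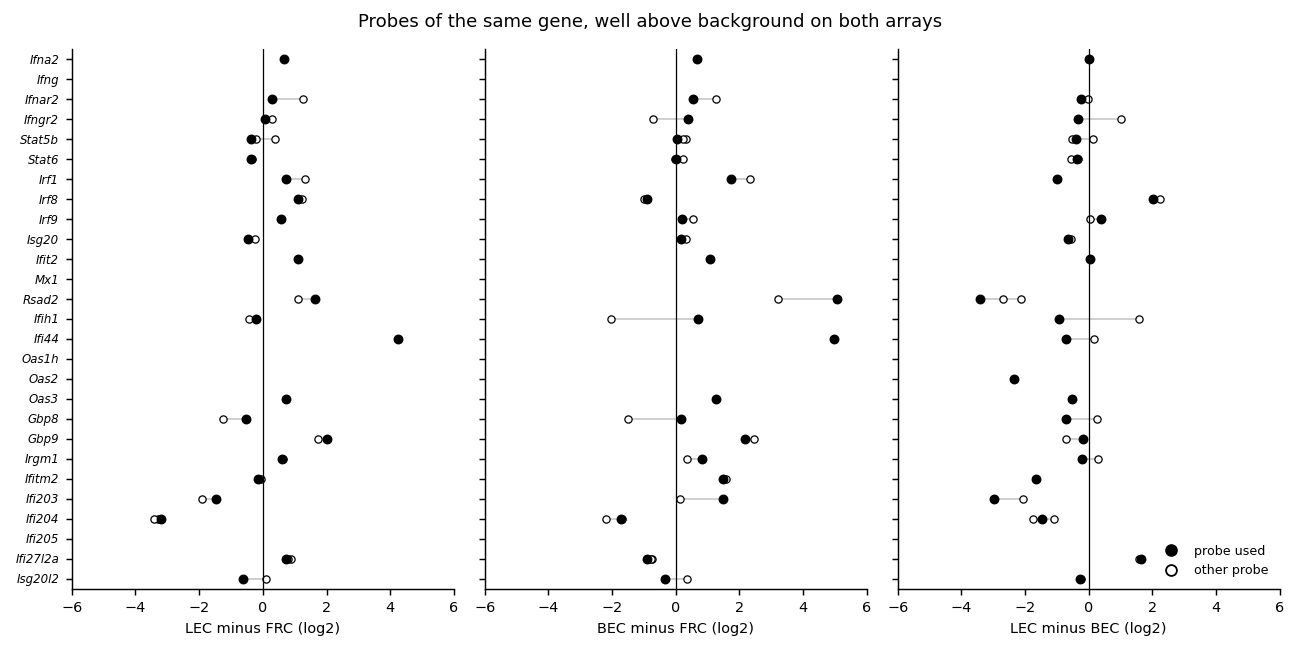
Log2 differences of the probes of named members with several probes, with the probe used filled and the others open, for probes well above background on both arrays. The Ifih1 probes spread widest of those drawn in BEC minus FRC, at 0.69 and -2.03.

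Interferon pathway genes outside the name rule were read from a list of 80 names, through which 75 genes were found on the arrays. Some sensor genes were listed under an older and a newer name, such as Ddx58 and Rigi. An unmatched name is thus not always a gene missing from the arrays. In LEC against FRC, 73 were compared, of which 8 (11.0%) were higher and 2 (2.74%) lower in LEC by at least 4-fold, beside 4.89% and 5.93% of all genes, with a median of 0.68. In BEC against FRC, 74 were compared, of which 11 (14.9%) were higher and 2 (2.70%) lower in BEC, beside 6.58% and 7.57%, with a median of 0.81. In LEC against BEC, 2 (2.70%) were higher and 3 (4.05%) lower in LEC, beside 3.39% and 3.38% and so near the background, with a median of -0.13.

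Cd274, the checkpoint ligand PD-L1, was at 2.63 in LEC, 2.42 in BEC and -1.78 in FRC, with LEC 21.2-fold and BEC 18.3-fold above FRC. Slfn2 was at 4.24 in LEC, 3.10 in BEC and 0.60 in FRC. Bst2, the tetherin gene, was at 7.14 in LEC, 7.15 in BEC and 5.02 in FRC. Also past 4-fold in both endothelial populations over FRC were Parp14, Tgtp1 and Ido1. Zbp1 and Ciita were past it in LEC, Ciita being 3.99-fold above FRC in BEC, and Herc6, Ly6e, Apol9a, Apol9b and Wars were past it in BEC. The files list Herc6, Trim30a and Tgtp1 under the names Herc5, Trim30 and Tgtp. Between the endothelial populations, Trim30a was past 4-fold higher in LEC than in BEC, and Ly6a, Sp100 and Apol9a past 4-fold lower.

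Serping1, the C1 inhibitor gene, was at 3.72 in LEC, 2.37 in BEC and 7.44 in FRC, 13.2-fold lower in LEC and 33.8-fold lower in BEC than in FRC. Ly6a, which encodes Sca-1, was at 2.75 in LEC, 6.98 in BEC and 6.65 in FRC, 15.0-fold lower in LEC than in FRC.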

How the data were processed

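Single-colour Agilent mouse arrays were hybridised with amplified, dye-labelled cRNA, per the labels' protocols. The deposited scanner files hold intensity values, background-subtracted within each array per the file headers, with Agilent Feature Extraction, version 10.7.3.1, named in the submitters' processing notes. The deposited series matrix also holds intensity values of the same arrays, used as an alternative. It is linear, with a lowest value of 15 and a median of 40.2 in each column, and no program is named for it.

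All 3 arrays lay on 1 slide. Outlier spots were left out, which removed 18 probes, and 41156 probes remained. The log2 values here are of the deposited processed intensity, minus each array's 75th percentile. A gene is its brightest probe on average, and names were matched to RefSeq by accession for 83 members and by symbol for 3. Genes were called at 4-fold, and no p-value was possible. Named were all members past 4-fold, the brightest of each role group, fixed IRF, STAT and receptor genes, and pathway genes past 4-fold. The members, lists and rules were chosen with earlier results of these data known. Probes spotted 10 times had a median SD of 0.05 to 0.06 log2 between spots, which covers spot error only, and the number of arrays limits the precision. Probe positions are on mm9, without exon or UTR annotation here. Some genes enter the counts but are not reported individually here. Alternatives were quantile normalization, another scaling, normexp correction (limma 3.58.1, R 4.3.3, offset 50), the series matrix, other probe rules, 2-fold, and the spike-in slope. Tables were made with Python 3.11.15, numpy 2.4.6 and pandas 2.3.3.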

Additional observations from a re-analysis of the deposited data

How the results depend on the processing

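No median over all compared members and no difference past 4-fold changed direction under the 9 settings tried. Within role groups the balance of signs could turn. Of the 7 STAT members in BEC minus FRC, 4 were above 0, but 2 with quantile normalization. Of the 9 IRF members in LEC minus FRC, 6 were above 0, but 4 with the spike-in slope. Of the members compared, 19 of 77 in LEC minus FRC, 14 of 76 in BEC minus FRC and 15 of 76 in LEC minus BEC changed sign under at least 1 setting, of which the spike-in slope turned 19, 11 and 5 and the mean over a gene's probes 0, 3 and 5. By that mean, Ifih1 and Gbp8 were at -0.67 and -0.66 in BEC minus FRC, and Ifngr2 was at 0.34 in LEC minus BEC. Of the calls, 5 of 11 in LEC against FRC, 9 of 13 in BEC against FRC and 1 of 5 in LEC against BEC were kept under each setting other than 2-fold that gave them a value. With 2-fold in place of 4-fold, 21 members were higher and 5 lower in LEC than in FRC, 30 higher and 9 lower in BEC than in FRC, and 10 higher and 11 lower in LEC than in BEC. The shares of all genes were then 13.0% and 13.3%, 16.8% and 16.5%, and 11.0% and 10.2%, the last pair close to the members' 13.2% and 14.5%. With normexp background correction, 2 members in LEC and 7 in BEC exceeded FRC 4-fold, and 0 in LEC exceeded BEC, beside 3.00%, 3.97% and 1.58% of all genes, with a median of 0.45 in LEC against FRC, 0.46 in BEC against FRC and -0.23 in LEC against BEC. With the spike-in slope, chosen after seeing the data, 14 members (18.2%) were higher in LEC than in FRC, beside 7.46% of all genes. In LEC against BEC, 1 (1.32%) was then higher and 5 (6.58%) lower in LEC, beside 4.22% and 3.67%. The median of LEC minus FRC was 0.062 under that slope, that of BEC minus FRC 0.52, and in LEC against BEC it was -0.54. Medians of all genes are given for the main setting only. Without the filter on dim probes, the median was 0.41 in LEC against FRC and 0.62 in BEC against FRC. Requiring the gene's own probe well above background on all arrays gave a LEC minus FRC median of 0.48. By that rule, 1 member (1.43%) was lower in BEC than in FRC, beside 6.27% of all genes. The mean over a gene's probes gave a median of 0.52 in BEC against FRC and -0.24 in LEC against BEC. Quantile normalization and the series matrix each gave -0.19 for LEC minus BEC. The median of detected probes left 1 member (1.32%) higher in LEC than in BEC, beside 3.29% of all genes. Why these moved was not tested beyond what each setting changes, so the cause was not tested. No paired analysis was possible because each population has 1 array. Members near or below the lowest signal well above background are limited by signal over background, and their folds are bounds.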
